A study of Mus musculus with 6 samples.

Results

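The transcription factors that direct the myeloid lineage were compared between bone marrow monocytes (BMDM) and brainstem microglia (BSM), the resident macrophages of the brain. The group held 10 genes chosen by name, whatever their values: Spi1, Cebpa, Cebpb, Cebpd, Cebpe, Runx1, Klf2, Klf4, Klf6 and Nr4a1. All 10 were found among the 35237 genes of the expression table, Spi1 under its older symbol Sfpi1 and Cebpd by its Ensembl identifier, ENSMUSG00000071637. RNA-Seq was carried out on 3 BMDM libraries and 3 BSM libraries from 6-week-old C57BL/6 mice, with no treatment other than tissue dissociation and sorting named in the labels, and with 1 male library and 2 female libraries for each cell type. Each library was a biological replicate made from cells pooled from several mice and sorted as CD11b+ Ly6G- cells, the BMDM for high CD45 and for CD115, and the BSM for low CD45 and low CD115. RNA was amplified before sequencing, and expression was given as FPKM (fragments scaled to the length of the transcript and to the number of fragments mapped), a value per transcript length that allows genes to be compared with each other.

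The myeloid lineage is built by a small set of DNA-binding proteins that act in sequence and together. Spi1 encodes PU.1, an ETS factor that monocytes and microglia need in order to form, and Runx1 acts before it, when blood stem cells emerge. The C/EBP proteins divide the later work, with Cebpa opening the granulocyte-monocyte path, Cebpb acting in monocytes and activated macrophages, Cebpd in acute inflammation and Cebpe in the last steps of granulocyte maturation. The Krüppel-like factors set the state of the mature cell, Klf4 promoting monocyte differentiation, Klf2 restraining activation and Klf6 favouring inflammatory polarization. Nr4a1 (Nur77) is an orphan nuclear receptor, induced rapidly by many stimuli, that the Ly6C-low patrolling monocytes require.

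Shown first are the promoters of 4 factors whose FPKM did not overlap between the cell types, whether or not the difference passed the test below, since they are the sequences that lie just before the start of transcription. RefSeq promoters (GRCm38.p6) were matched for 7 of the 10 factors. Each line below gives the 250 bases before the start site, 5′ to 3′ on the strand of the gene. Capitals mark matches to CCNCNCCC, the letters bound by Krüppel-like factors, on either strand and with overlapping matches joined, and in Cebpa also TATAAA. The windows are chr2:167688665-167688914 (+) for Cebpb, chr4:55532476-55532725 (-) for Klf4, chr15:101266596-101266845 (+) for Nr4a1 and chr7:35119043-35119292 (+) for Cebpa.
Cebpb: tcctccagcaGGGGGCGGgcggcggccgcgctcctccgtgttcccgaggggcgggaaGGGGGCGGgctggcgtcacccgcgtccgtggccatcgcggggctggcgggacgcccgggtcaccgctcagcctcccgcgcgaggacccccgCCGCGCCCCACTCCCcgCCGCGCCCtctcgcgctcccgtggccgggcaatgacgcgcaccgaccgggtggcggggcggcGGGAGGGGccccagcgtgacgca
Klf4: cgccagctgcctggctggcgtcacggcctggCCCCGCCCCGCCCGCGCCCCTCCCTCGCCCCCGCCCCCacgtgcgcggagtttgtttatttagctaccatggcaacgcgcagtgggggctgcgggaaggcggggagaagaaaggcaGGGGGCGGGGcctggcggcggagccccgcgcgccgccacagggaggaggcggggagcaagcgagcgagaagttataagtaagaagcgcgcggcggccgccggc
Nr4a1: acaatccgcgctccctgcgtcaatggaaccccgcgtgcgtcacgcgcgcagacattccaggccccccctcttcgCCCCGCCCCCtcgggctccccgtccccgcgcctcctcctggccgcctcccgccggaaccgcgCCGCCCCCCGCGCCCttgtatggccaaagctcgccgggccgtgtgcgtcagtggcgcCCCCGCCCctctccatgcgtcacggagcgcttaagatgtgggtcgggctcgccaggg
Cebpa: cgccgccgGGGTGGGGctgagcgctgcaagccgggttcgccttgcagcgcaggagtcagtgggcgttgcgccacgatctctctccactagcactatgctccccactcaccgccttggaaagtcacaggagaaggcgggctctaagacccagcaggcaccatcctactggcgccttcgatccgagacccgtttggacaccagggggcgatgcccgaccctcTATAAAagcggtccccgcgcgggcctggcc

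The Krüppel-like letters were matched 6 times in the Cebpb promoter, 9 times in that of Klf4, 5 times in that of Nr4a1 and 1 time in that of Cebpa, counting overlapping matches. At least 1 match was found in all 7 factors with a promoter and in 45.9% of all 32851 promoters. The factors' promoters were also rich in G and C, the bases these letters are made of, with 81.6% in Cebpb, 74.0% in Klf4, 74.4% in Nr4a1 and 66.4% in Cebpa against a median of 52.4% over all promoters. TATAAA stood at -30 to -25 in Cebpa and in none of the other factors' promoters, and it was present in 12.4% of all promoters. The letters GAGGAA of PU.1 were matched only in the more downstream of the 2 Runx1 promoters, at -46 to -41 on the reverse strand, against 23.3% of all promoters. TTGCNNAA of the C/EBP proteins, TGTGGT of the RUNX proteins, AAAGGTCA of the NR4A receptors and TGACGT, found in the cAMP response element, had no match in these windows of the factors. All motifs were searched on both strands, and a match describes letters and was not tested as a binding site.

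The cells carried the markers of their labels. Ly6c2 and Ccr2, which mark classical monocytes, were 20.1 ± 8.53 and 153 ± 15.4 FPKM (SD, n = 3) in BMDM, whereas in BSM Ly6c2 was listed at 0 in every library and Ccr2 was 0.262 ± 0.217 FPKM. By limma at an adjusted p-value under 0.05, all 9 classical monocyte genes were higher in BMDM, as were 45.3% of all genes tested. All 10 microglia genes were higher in BSM (9.22% of all genes), including Cx3cr1, the fractalkine receptor, at 85.4 ± 11.1 FPKM in BSM against 6.74 ± 0.507 in BMDM. The minimum for a test, 3 FPKM in at least 1 library, set the direction of most of these genes. All 9 monocyte genes met it in BMDM alone and 8 of the 10 microglia genes in BSM alone. Summed over all genes, FPKM came to between 163198.7 and 194184.2 in BMDM and between 68287.8 and 75021.4 in BSM, and the median gene tested was 0.81 higher in BMDM on the log2(FPKM + 1) scale. BSM replicate 1 had the fewest genes at 1 FPKM or more, 5155 against 6335 to 7898 in the other 5 libraries. In the study's record of RNA quality, the RNA of this library was far lower in integrity and amount than that of any other, and the part of RNA quality in its values was not tested.

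The 10 factors together summed to between 55.6 and 77.5 FPKM in BMDM and between 52.1 and 72.7 in BSM, so their total overlapped between the cell types although the total over all genes did not. Krüppel-like factor Klf6 was the most abundant of the 10 in both cell types. At 23.3 to 35.1 FPKM in BMDM and 27.1 to 49.4 in BSM, it weighed heavily in that total and itself overlapped. In BMDM it was followed by Klf4, Runx1, Cebpb, Cebpa, Spi1 and Klf2, and in BSM by Runx1, Cebpa, Klf2, Klf4, Spi1 and Cebpb. Neighbours in this order were not all apart: in BMDM the libraries of Klf4 and Runx1 overlapped, as did those of Cebpb and Cebpa, of Cebpa and Spi1 and of Spi1 and Klf2, and in BSM those of Runx1 and Cebpa overlapped, as did those of Klf2, Klf4 and Spi1. Nr4a1, Cebpe and Cebpd had the lowest mean values in BMDM, and none of the 3 reached the minimum of 3 FPKM in any library.

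**Figure D1:**
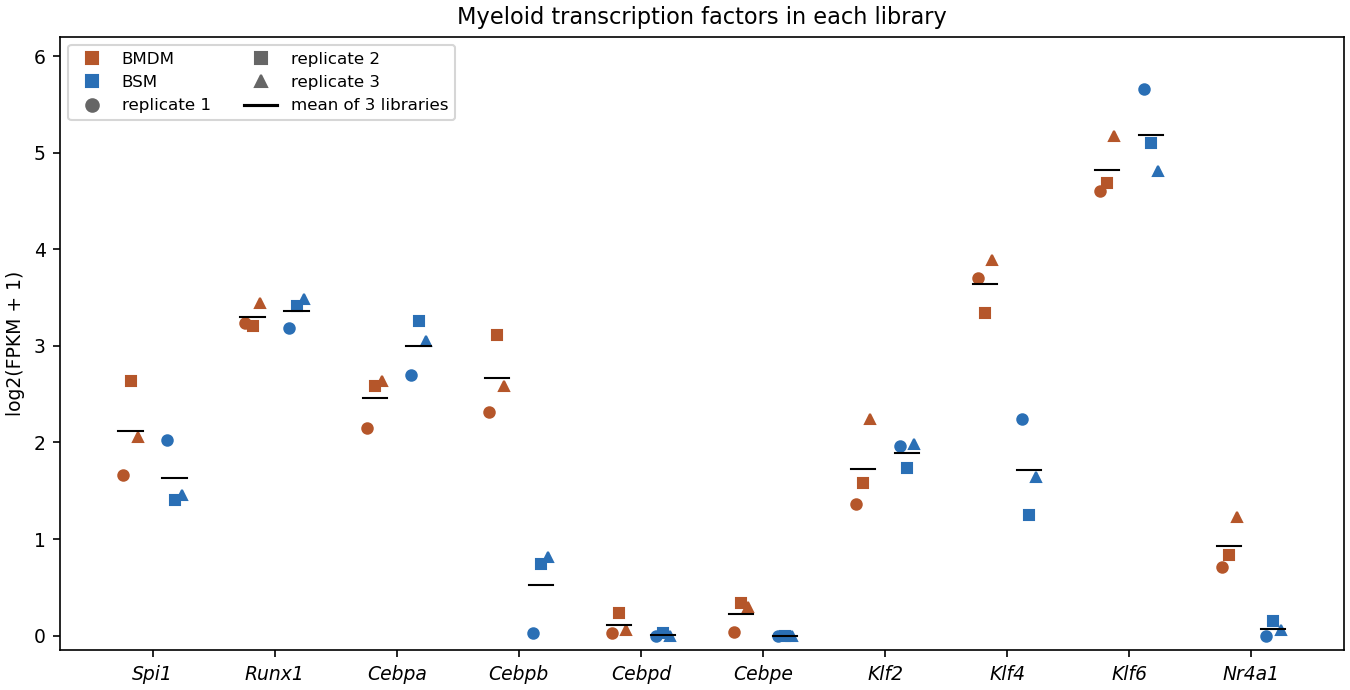
Expression of the 10 factors as log2(FPKM + 1) in each of the 3 BMDM (orange) and 3 BSM (blue) libraries, with the replicate given by the shape of the point and the mean by a bar. Cebpb, Klf4, Nr4a1 and Cebpe were higher in every BMDM library than in any BSM library, as were 55.2% of the 6364 genes tested. Cebpa was higher in every BSM library, as were 11.6%, and Spi1, Runx1, Cebpd, Klf2 and Klf6 overlapped. Nr4a1 and Cebpe did not reach the minimum for a test, so that share does not cover them.

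Of the 10 factors, 7 were tested, that is, had 3 FPKM or more in at least 1 library, as 6364 genes did. Cebpb and Klf4 were higher in BMDM by limma at an adjusted p-value under 0.05, which is 2 of 7, and none of the 7 was higher in BSM. Over all genes tested, 45.3% were called higher in BMDM and 9.22% higher in BSM. The median log2 fold change of the 7 factors was -0.06, against 0.81 for all genes. Cebpb and Klf2 passed the minimum only through BMDM libraries, so these counts and medians describe the factors measured and no more.

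Since most genes lay higher in BMDM, the scale given to the libraries decided how many factors were called. Quantile normalization, which gives every library the same distribution of values, moved the median of all genes to 0.02, and scaling every library to the same summed FPKM moved it to -0.23. After quantile normalization Cebpb and Klf4 were still higher in BMDM, while Cebpa, Runx1, Klf2 and Klf6 were higher in BSM, which is 4 of 7 against 19.3% of all genes in that direction and 21.7% in the other. Upper quartile scaling called the same factors except Klf2, against 16.5% of all genes higher in BSM and 21.7% higher in BMDM. With equal sums, the same 4 factors were higher in BSM (24.9% of all genes), and Cebpb alone was higher in BMDM (15.2%). The rank of a factor among the 6364 genes of its own library does not depend on such scaling and is given with each factor as a percentile. Quantile normalization uses the same ranks, so the percentiles are no separate support for its calls. Each BMDM library had 4379 to 5083 genes at 3 FPKM or more and each BSM library 3024 to 3428. A value of 3 FPKM thus stood at a higher percentile in BSM.

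**Figure D2:**
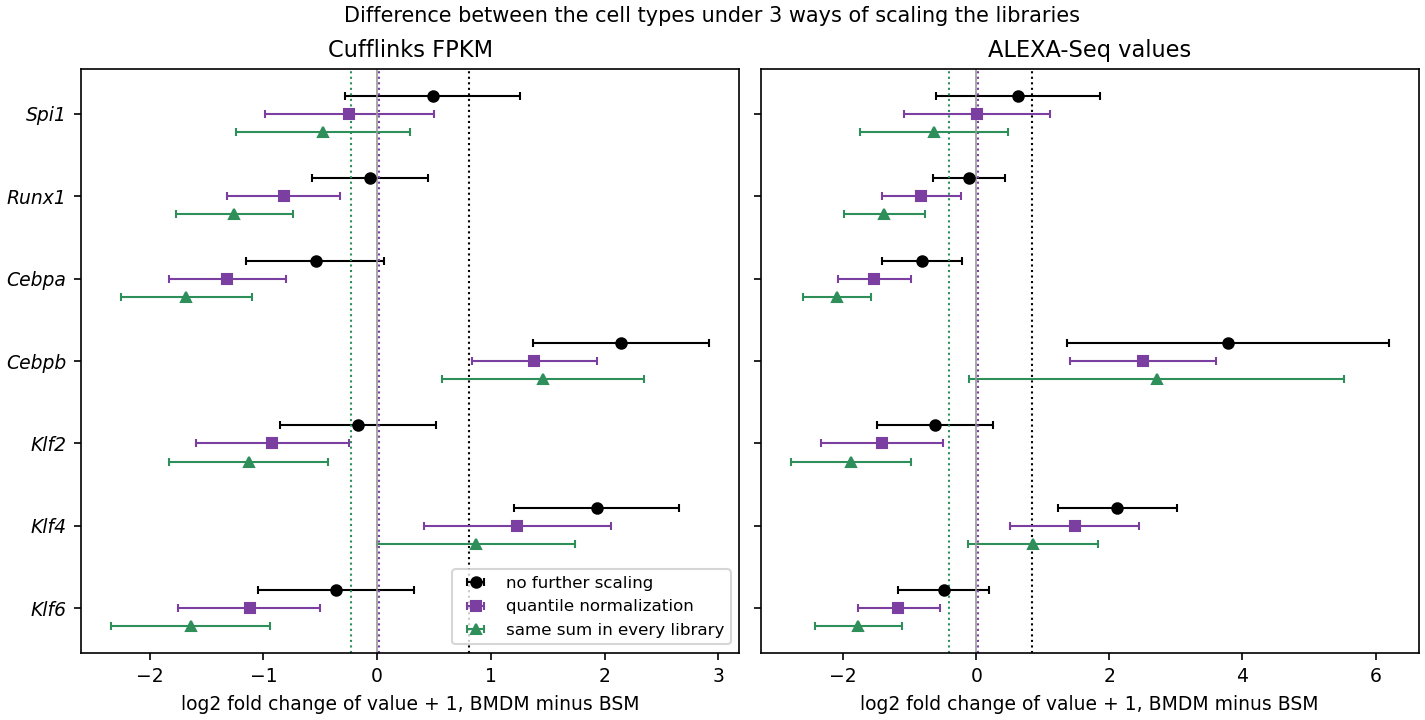
Log2 fold change of value + 1 (BMDM minus BSM) of the 7 factors tested, with 95% confidence intervals from limma, from FPKM (left) and ALEXA-Seq values (right) under 3 ways of scaling. Dotted lines mark the median of all genes tested in the same colour, which moved from 0.81 to 0.02 and -0.23 for FPKM; Cebpb and Klf4 lay above it and Cebpa, Runx1, Klf2 and Klf6 below it under each of the 3.

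Spi1, the gene of PU.1, was expressed at a low level in both cell types (mm9 chr2:90936253-90955913). It measured 2.16, 5.24 and 3.15 FPKM in BMDM replicates 1, 2 and 3 and 3.07, 1.65 and 1.74 FPKM in the BSM replicates. The highest BMDM value was that of replicate 2 and the highest BSM value that of replicate 1, and the groups overlapped. The log2 fold change was 0.49 (SE 0.33, 95% confidence interval -0.28 to 1.26, adjusted p = 0.238), and it turned to -0.25 after quantile normalization and to -0.48 with equal sums, neither past the threshold (adjusted p = 0.570 and 0.277). Within their libraries the percentiles were 20.3, 42.8 and 26.2 in BMDM and 53.1, 27.1 and 30.3 in BSM. Without BMDM replicate 2 the fold change was 0.23 (adjusted p = 0.582), and Spi1 was called higher in BMDM only where limma weighted the libraries by their quality (0.60, adjusted p = 0.0115).

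Runx1 (mm9 chr16:92602140-92826311) was likewise near the same FPKM in both. It measured 8.45, 8.24 and 9.87 FPKM in BMDM and 8.09, 9.65 and 10.2 FPKM in BSM, with overlapping groups and a log2 fold change of -0.06 (SE 0.22, interval -0.57 to 0.45, adjusted p = 0.829). Its rank differed more than its FPKM, with percentiles of 67.2, 59.7 and 67.2 in BMDM and 78.0, 82.0 and 83.5 in BSM. After quantile normalization Runx1 was higher in BSM by 0.82 on the log2 scale (fold change -0.82, adjusted p = 0.0183), and with equal sums the fold change was -1.26 (adjusted p = 0.00390). The gene ENSMUSG00000086934 lies within the span of Runx1 at no more than 0.712 FPKM in any library.

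Within the RUNX family the share of Runx1 was higher in BSM. Runx1 made up 69.0%, 59.7% and 62.6% of the summed FPKM of Runx1, Runx2 and Runx3 in BMDM and 97.4%, 95.0% and 96.9% in BSM. The groups did not overlap, and the exact two-sided permutation p was 0.1, the smallest that 3 libraries against 3 allow. The remainder in BMDM was Runx2 (22.9% ± 5.10) and Runx3 (13.4% ± 7.78), relatives best known from bone formation and from lymphocytes. Runx2, with 3.22 ± 1.06 FPKM in BMDM and 0.343 ± 0.141 in BSM, was called higher in BMDM (log2 fold change 1.63, SE 0.30, adjusted p = 0.00281). Runx3 was called too (1.45, SE 0.37, adjusted p = 0.0123), as was Cbfb, the partner that RUNX proteins need to bind DNA (1.40, SE 0.25, adjusted p = 0.00248). Over all genes tested, 45.3% were called in this direction. Runx2 reached the minimum of 3 FPKM in BMDM replicate 3 alone and Runx3 in BMDM replicate 2 alone, so the minimum set their direction. After quantile normalization all 3 kept a positive fold change but missed the threshold, with adjusted p-values of 0.0933 for Runx2, 0.0684 for Runx3 and 0.0762 for Cbfb.

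Among the C/EBP genes, Cebpb set the cell types apart. It measured 3.99, 7.62 and 5.00 FPKM in BMDM and 0.0193, 0.671 and 0.753 FPKM in BSM, so its mean was 11.5 times higher in BMDM (5.54 ± 1.88 against 0.481 ± 0.402). Every BMDM library lay above every BSM library, as held for 55.2% of all genes tested. The log2 fold change was 2.14 (SE 0.33, interval 1.37 to 2.92, adjusted p = 0.00139), or 1.34 above the median gene, and it stayed past the threshold after quantile normalization (1.38, adjusted p = 0.00278) and with equal sums (1.46, adjusted p = 0.0201). Its percentile was 41.8, 57.4 and 44.5 in BMDM and 9.4, 12.5 and 14.4 in BSM. Without BMDM replicate 2, the library richest in neutrophil granule RNA, the fold change was 1.93 (adjusted p = 0.00645), and without BSM replicate 1, whose value was the lowest, it was 1.89 (adjusted p = 0.00155).

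The Cebpb model (mm9 chr2:167514467-167515887) shares 856 of its 1421 bases with the span of Ube2v1, a ubiquitin-conjugation gene. Ube2v1 measured 4.18, 8.41 and 4.62 FPKM in BMDM and 1.18, 1.69 and 1.75 FPKM in BSM, higher in BMDM as Cebpb was. The counting is not stated to have used strand, so fragments from the shared bases cannot be told apart between the 2 genes, and the part of Ube2v1 in the Cebpb values was not tested.

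Cebpa (mm9 chr7:35904322-35906945) differed in the other direction. It measured 3.44, 4.98 and 5.22 FPKM in BMDM and 5.47, 8.59 and 7.27 FPKM in BSM, and every BSM library lay above every BMDM library, as held for 11.6% of all genes tested. The log2 fold change of -0.54 (SE 0.26, interval -1.15 to 0.06) did not pass the adjustment (adjusted p = 0.111). It lay 1.35 below the median gene (-1.35 relative to it), and Cebpa was called higher in BSM after quantile normalization (-1.32, adjusted p = 0.00261) and with equal sums (-1.68, adjusted p = 0.00176). The percentiles were 36.1, 41.1 and 46.0 in BMDM and 69.4, 79.4 and 76.6 in BSM, with a gap of more than 20 points between the groups. Without BSM replicate 1, the lowest of its group, Cebpa was called without any scaling (-0.70, adjusted p = 0.0319).

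Cebpd (mm9 chr16:15887418-15888252) and Cebpe (mm9 chr14:55329200-55331011) were close to the floor of the data. Cebpd measured 0.0161, 0.179 and 0.0443 FPKM in BMDM and 0, 0.0166 and 0 in BSM, with overlapping groups. Cebpe measured 0.0260, 0.268 and 0.230 FPKM in BMDM and was listed at 0 in all BSM libraries. Tested with no minimum on FPKM, the log2 fold changes were 0.10 for Cebpd (adjusted p = 0.298) and 0.23 for Cebpe (adjusted p = 0.119), neither past the threshold. A value listed at 0 need not mean that a gene was silent in these tables, since Itgam, the gene of the sort marker CD11b, was listed at 0 in BSM replicate 2 and at 176 and 100.5 FPKM in BSM replicates 1 and 3.

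Cebpb also differed in its share of the C/EBP sum. Cebpa, Cebpb, Cebpd, Cebpe and Cebpg, the last a partner of the others that lacks an activation domain, summed to 17.4 ± 3.15 FPKM in BMDM and 19.4 ± 4.81 FPKM in BSM (exact permutation p = 0.7), a comparison of FPKM with no further scaling that does not show the sums to be equal. Cebpb made up 28.9%, 40.8% and 25.4% of the sum in BMDM but 0.0776%, 4.06% and 4.52% in BSM (exact permutation p = 0.1). Cebpa made up 26.0% ± 0.985 in BMDM and 39.2% ± 15.5 in BSM, the latter spread by BSM replicate 1, where Cebpg took 78.0% and Cebpa 22.0% (exact permutation p = 0.4). Cebpg itself measured 7.06 ± 1.89 FPKM in BMDM and 11.8 ± 6.66 in BSM, with a log2 fold change of -0.57 that was not called (SE 0.38, adjusted p = 0.233).

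**Figure D3:**
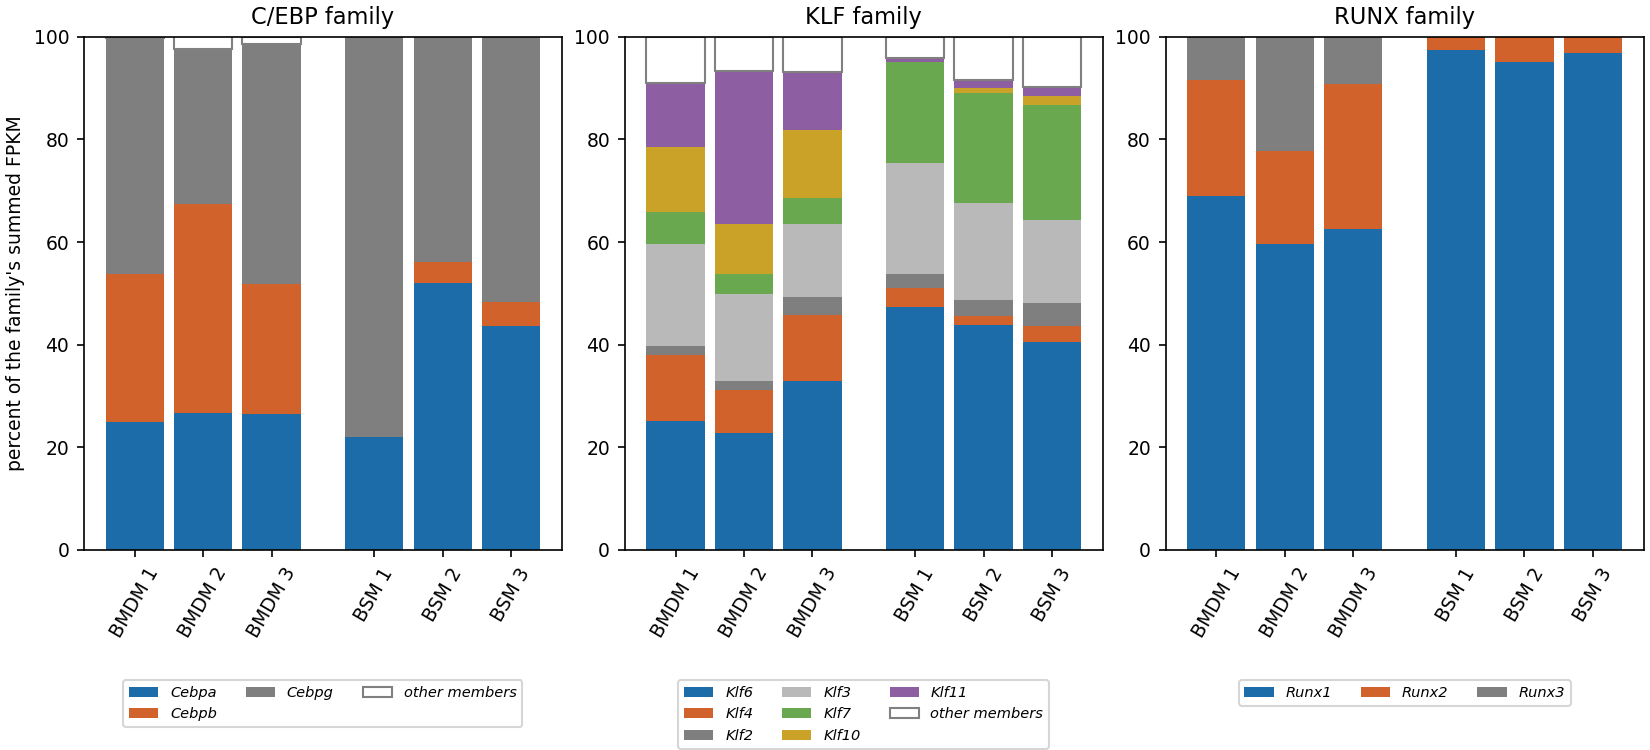
Share of each gene in the summed FPKM of its family, in percent, for the C/EBP, KLF and RUNX families in the 6 libraries (stacked bars, 100% for each library). Cebpb, Klf4, Klf10, Klf11, Runx2 and Runx3 took larger shares in every BMDM library, and Klf6, Klf7 and Runx1 larger shares in every BSM library.

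Among the Krüppel-like factors, Klf4 (mm9 chr4:55540015-55545347) was the one of the 3 that was higher in BMDM. It measured 12, 9.10 and 13.8 FPKM in BMDM and 3.73, 1.38 and 2.12 FPKM in BSM, so its mean was 4.82 times higher (11.6 ± 2.36 against 2.41 ± 1.20). No libraries overlapped, as held in this direction for 55.2% of all genes tested, and BSM replicate 1 had the highest BSM value. The log2 fold change was 1.93 (SE 0.31, interval 1.20 to 2.65, adjusted p = 0.00168), or 1.12 above the median gene. After quantile normalization it was 1.23 (adjusted p = 0.0270), but with equal sums 0.87, which missed the threshold (adjusted p = 0.102). The percentiles were 76.7, 62.5 and 76.4 in BMDM and 59.0, 22.7 and 35.8 in BSM.

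Klf6 (mm9 chr13:5860735-5869639) measured 23.3, 24.8 and 35.1 FPKM in BMDM and 49.4, 33.2 and 27.1 FPKM in BSM. The groups overlapped and the log2 fold change of -0.36 (SE 0.29, interval -1.05 to 0.32) was not called (adjusted p = 0.319). In BSM it ranked among the most abundant genes, at percentiles of 97.1, 95.3 and 94.6, against 88.4, 87.3 and 91.6 in BMDM. It was called higher in BSM after quantile normalization (-1.12, adjusted p = 0.0128) and with equal sums (-1.64, adjusted p = 0.00458).

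Klf2 (mm9 chr8:74842932-74845555) was the lowest of the 3 in BMDM but not in BSM, where its mean was 2.73 FPKM and that of Klf4 2.41. It measured 1.57, 1.98 and 3.75 FPKM in BMDM and 2.91, 2.33 and 2.95 FPKM in BSM, and the high value of BMDM replicate 3 put the groups in overlap. The log2 fold change was -0.17 (SE 0.30, interval -0.85 to 0.52, adjusted p = 0.654), and it turned to 0.02 without BMDM replicate 1. After quantile normalization Klf2 was called higher in BSM (-0.92, adjusted p = 0.0372), and the percentiles, 13.8, 13 and 33.3 in BMDM and 51.6, 36.6 and 46.5 in BSM, did not overlap.

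The KLF family had 17 measured genes, which summed to 103 ± 8.76 FPKM in BMDM and 82.4 ± 19.5 FPKM in BSM (exact permutation p = 0.2). Klf6 was 27.0% ± 5.29 of the sum in BMDM and 43.9% ± 3.45 in BSM, and Klf4 was 11.4% ± 2.62 and 2.85% ± 0.919, both without overlap (exact permutation p = 0.1 each). Such separation was common in this family. The shares of Klf1, Klf5 and Klf7 to Klf13 did not overlap either (exact permutation p = 0.1 each), while those of the other KLF genes did. A share also depends on the other genes in the sum, and the FPKM of Klf6 itself overlapped. Klf2 was 2.34% ± 1.02 and 3.42% ± 0.864 (exact permutation p = 0.3). Of the 14 other KLF genes, 6 were tested, of which 3 were called higher in BMDM (45.3% of all genes) and 2 in BSM (9.22%). Klf10 and Klf11, transcripts induced by TGF-beta, reached 12.2 ± 1.82 and 18.8 ± 12 FPKM in BMDM against 0.597 ± 0.573 and 1.05 ± 0.352 in BSM, with log2 fold changes of 3.11 (SE 0.32, adjusted p = 0.000191) and 3.13 (SE 0.40, adjusted p = 0.000569). Klf13 was the third (2.21, adjusted p = 0.000511). Klf12, a repressor, and Klf7 were higher in BSM (-2.63, adjusted p = 0.000228, and -1.59, adjusted p = 0.00115), Klf12 at 5.35 ± 1.38 FPKM in BSM and 0.0100 ± 0.00894 in BMDM. Klf10, Klf11 and Klf13 had reached the minimum in BMDM alone and Klf12 in BSM alone, so that the minimum set their direction.

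Nr4a1 (mm9 chr15:101097284-101105223) stayed below the minimum but separated the groups. It measured 0.637, 0.782 and 1.34 FPKM in BMDM and 0, 0.112 and 0.0395 FPKM in BSM, with no overlap, as held for 55.2% of the genes that met the minimum. With the minimum lowered to 1 FPKM, which BMDM replicate 3 alone met, it was higher in BMDM with a log2 fold change of 0.85 (SE 0.22, interval 0.34 to 1.37, adjusted p = 0.0162), where 37.2% of all genes were called in that direction. With no minimum it was called as well (adjusted p = 0.0261), against 14.9% of all genes. Nr4a2, its closest relative, measured 0.402, 1.10 and 0.441 FPKM in BMDM and 0, 0.0197 and 0.0272 in BSM and was also called at the minimum of 1 FPKM, which BMDM replicate 2 alone met (log2 fold change 0.67, adjusted p = 0.0450). Nr4a3 stayed under 0.1 FPKM in all libraries.

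Nr4a1 and Klf4 can be induced within minutes when cells are handled, as immediate early genes are, and the listed genes of that kind are given beside them. Of 16 immediate early genes, 11 were tested, 8 were called higher in BSM (9.22% of all genes) and none in BMDM (45.3%), their median log2 fold change being -1.68. The minimum was reached in BSM alone by 5 of the 11, and 4 of the other 6 were called higher in BSM. Their sum ranged from 190.1 to 417 FPKM in BMDM and from 961 to 1605 FPKM in BSM. Most of it in each library was Zfp36, at 157, 200.4 and 335 FPKM in BMDM and 939, 653 and 573 in BSM. Egr1, induced with Nr4a1 by many stimuli, measured 121 ± 24.3 FPKM in BSM and 0.401 ± 0.356 in BMDM (log2 fold change -6.46, SE 0.29, adjusted p = 3.40e-06). Jun was -3.31 (adjusted p = 0.000174), Btg2 -3.78 (adjusted p = 6.23e-05) and Fosb -1.97 (adjusted p = 0.00404), whereas Fos, at 15.9 ± 7.84 and 22.7 ± 7.09 FPKM, was not called (-0.57, adjusted p = 0.264) unless quantile normalization was used (-1.35, adjusted p = 0.0221). The part of tissue dissociation in these values was not tested.

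The same libraries were also quantified by the authors with ALEXA-Seq, whose values are on a linear scale of unnamed unit. Here 2 of the 7 factors tested were higher in BMDM (37.1% of all genes) and 1 was higher in BSM (10.9%). Klf4 measured 190.5, 140.3 and 210.0 in BMDM and 64.0, 26.0 and 38.9 in BSM (log2 fold change of value + 1 of 2.12, SE 0.38, adjusted p = 0.00412). Cebpb measured 78.8, 126 and 82.1 in BMDM and 0.238, 12.4 and 18.7 in BSM (3.78, SE 1.02, adjusted p = 0.0217), a call that was lost without each BMDM library in turn, with an adjusted p of up to 0.0870, and with equal sums (adjusted p = 0.109). Cebpa measured 83.3, 127 and 111 in BMDM and 168, 225 and 173 in BSM and passed the threshold in this table (-0.82, SE 0.25, adjusted p = 0.0341), which it missed without BMDM replicate 1 or 3 or BSM replicate 2 or 3 (adjusted p of up to 0.118). Spi1, Runx1, Klf2 and Klf6 overlapped again and were not called, with adjusted p-values of 0.344, 0.718, 0.195 and 0.192. Quantile normalization of this table gave the same calls as for FPKM, 2 factors higher in BMDM (22.6% of all genes) and 4 higher in BSM (21.2%), and equal sums called none higher in BMDM (13.2%) and the same 4 higher in BSM (30.2%). Nr4a1, at 13.5, 17.5 and 28.2 in BMDM and 0, 2.68 and 0.820 in BSM, was tested only with no minimum and was then called higher in BMDM (3.40, SE 0.66, adjusted p = 0.0184), as were 10.5% of all genes.

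The other regulators around these factors came to 62 genes in 6 lists, of which 35 were tested. Of these, 16 (45.7%) were called higher in BMDM and 5 (14.3%) in BSM, near the 45.3% and 9.22% of all genes, and their median log2 fold change was 0.73. The ETS relatives of PU.1 went both ways, with 5 of 11 tested higher in BMDM, led by Elf4 (1.87, SE 0.22, adjusted p = 0.000389), Gabpa (1.42), Elf1 (1.27) and Etv6 (1.09). Another 3, which reached the minimum in BSM alone, were higher in BSM, namely Etv5 (-2.09, SE 0.27, adjusted p = 0.000533), Ets1 (-2.00) and Etv3 (-1.21). Of these ETS genes higher in BMDM, Elf4 alone was still called after quantile normalization (1.12, adjusted p = 0.00317). Among 11 tested regulators of blood cell fate, 5 were higher in BMDM and none in BSM, including the retinoic acid receptor Rara (2.74, SE 0.26, adjusted p = 0.000121) and the progenitor factor Myb (2.21, adjusted p = 0.00318). Of the 11, 5 reached the minimum in BMDM alone, among them Rara, Myb and Id2. Of the 6 that reached it in both cell types, 2 were called higher in BMDM. Id2 (1.29) and Zeb2 (1.18) were called without scaling but not after quantile normalization, and Zeb2 turned to -0.13 with equal sums. The 3 tested C/EBP relatives outside the 10 factors were not called.

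**Figure D4:**
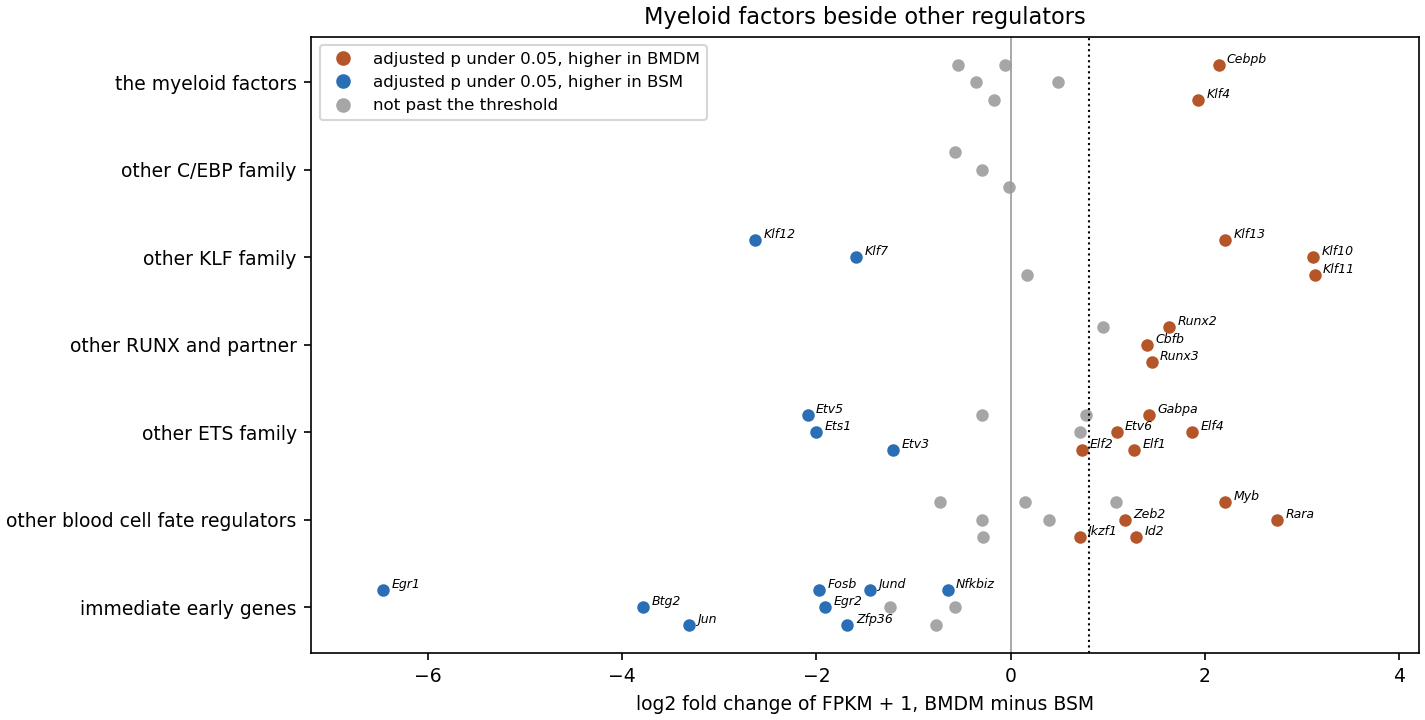
Log2 fold change of FPKM + 1 (BMDM minus BSM) of each tested gene among the myeloid factors and among related regulators, with genes past an adjusted p-value of 0.05 named and coloured by direction. The dotted line is the median of all genes tested, 0.81; of the 7 factors, Cebpb and Klf4 lay to its right, and immediate early genes were called in BSM alone.

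Genes that PU.1 and the C/EBP proteins are known to activate differed in both directions. All 21 were tested, and 13 were called higher in BMDM against 3 in BSM, beside 45.3% and 9.22% of all genes, the median log2 fold change being 1.60. The counts were 10 and 5 after quantile normalization (21.7% and 19.3% of all genes) and 9 and 5 with upper quartile scaling (21.7% and 16.5%). With equal sums they were 7 and 5 (15.2% and 24.9%), and the median was 0.59. Of the 21, 9 reached the minimum in BMDM alone and 2 in BSM alone, and of the 10 that reached it in both, 4 were called higher in BMDM and 2 in BSM. Mpo, Elane, Prtn3 and Ctsg are also on the list of progenitor markers. The lysozyme gene Lyz2 measured 1114, 2569 and 1338 FPKM in BMDM and 4.68, 6.00 and 5.31 FPKM in BSM (log2 fold change 7.96, SE 0.33, adjusted p = 2.91e-06). Cybb, the catalytic subunit of the phagocyte oxidase, was 284 ± 6.37 FPKM against 0.684 ± 0.689 (7.49, adjusted p = 3.07e-06), and Mpo, myeloperoxidase, was 32.7, 181 and 67.1 FPKM in BMDM and at most 0.00913 in BSM (6.22, adjusted p = 8.30e-05). Lyz1 followed (4.91, adjusted p = 2.48e-05), but Lyz1 and Lyz2 are near copies of each other and their reads may have been split between them.

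The 3 targets higher in BSM were Csf1r, Cd14 and Fcgr1, the receptor for CSF-1, the co-receptor for endotoxin and a receptor for IgG. Csf1r measured 19.1, 21.3 and 21.2 FPKM in BMDM and 158, 131 and 102 FPKM in BSM (-2.58, SE 0.24, adjusted p = 0.000102), whereas the protein it encodes, CD115, was a sort criterion set to low in BSM. Cd14 was 0.642 ± 0.441 against 5.13 ± 1.13 FPKM (-1.92, adjusted p = 0.00125) and Fcgr1 2.56 ± 0.610 against 10.7 ± 2.92 FPKM (-1.70, adjusted p = 0.00155). Csf3r, the G-CSF receptor, overlapped between the groups at 10.7 ± 1.53 and 15.6 ± 4.36 FPKM (-0.48, adjusted p = 0.162) and was called higher in BSM after quantile normalization (-1.25, adjusted p = 0.00602). Itgam measured 132, 109 and 124 FPKM in BMDM, and its log2 fold change of 2.22 (adjusted p = 0.296) turned to -0.13 without BSM replicate 2, where it was listed at 0. No relation between a factor and a target was tested.

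Neutrophil granule genes, which Cebpe activates during maturation, were held by BMDM. Of 13 genes, 10 reached the minimum, all of them in BMDM alone, so that the minimum set their direction. Of these, 7 were called higher in BMDM, beside 45.3% of all genes, and 5 after quantile normalization, beside 21.7%. The 13 genes summed to 298 to 685 FPKM in BMDM and to 0.0468 to 0.277 FPKM in BSM. Most of the BMDM sum was Chi3l3 (342 ± 75.2 FPKM), which classical monocytes also express. Ngp and S100a9, proteins of neutrophil granules and cytosol, were concentrated in BMDM replicate 2, with Ngp at 2.44, 77.1 and 3.44 FPKM and S100a9 at 10.2, 129.6 and 12.2 FPKM in BMDM replicates 1, 2 and 3. Without that library all 10 tested granule genes were called higher in BMDM, at a lower median log2 fold change of 2.26 against 3.20 with it. These 10 had been kept by the minimum with that library included, so their number says little of the other libraries. The share of all genes called without that library is not given here. Ltf, Camp and Retnlg were under 1 FPKM in BMDM replicates 1 and 3 and at 0 in BSM. BMDM replicate 2 also had the highest BMDM values of Spi1, Cebpb, Cebpd and Cebpe and the lowest of Klf4 and Runx1. Its summed FPKM, 194184.2, was the highest. In the study's record it had the smallest share of reads mapped and the least concentrated RNA of the BMDM libraries. The parts of granulocyte RNA and of library quality in these values were not tested. Ly6G- cells had been sorted, and Ly6g itself did not reach the minimum. It was listed at 0.293 FPKM in BMDM replicate 2 and at 0 in every other library. Progenitor markers moved in the same direction, with 5 of 6 tested higher in BMDM (45.3% of all genes) and 1, Cd34, higher in BSM (9.22%). Each had reached the minimum in that cell type alone, and the sums were 48.9 to 270.5 FPKM against 4.85 to 11.4 FPKM. In pooled cells of this kind a different number of cells of a type and a different amount of RNA per cell cannot be told apart.

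Among the markers of other cells, those of endothelium and neurons were low. Endothelial markers, of note for the Krüppel-like factors that endothelium also expresses, summed to 1.05 to 1.78 FPKM in BMDM and to 0.193 to 0.989 in BSM, with none of 10 reaching the minimum. Neuron markers summed to at most 0.328 FPKM. Astrocyte markers summed to 5.42 to 9.54 FPKM in BSM against 0.259 to 0.397 in BMDM, nearly all of it from Slc1a3, the 1 of 8 genes that was tested (called higher in BSM, -2.95, adjusted p = 0.000131). Oligodendrocyte markers summed to 7.06 to 12.8 FPKM in BMDM against 1.78 to 2.13 in BSM, with Mbp and Cnp, the 2 tested, called higher in BMDM, although Cnp was not called after quantile normalization (adjusted p = 0.902). Erythroid markers summed to 7.50 to 49.6 FPKM in BMDM and to 0.00511 to 0.176 FPKM in BSM. The 3 tested reached the minimum in BMDM alone and were called higher there (45.3% of all genes), 2 of them after quantile normalization (21.7%). They were concentrated in BMDM replicate 2, with Hba-a1 at 3.80, 21.6 and 3.08 FPKM and Hbb-b1 at 2.23, 14.6 and 2.92 FPKM in BMDM replicates 1, 2 and 3, the library that also had the highest Spi1 and Cebpb, and their part in those values was not tested. Lymphocyte markers summed to at most 8.89 FPKM in BMDM and 0.532 in BSM, and the 1 tested was not called. Of the non-classical monocyte genes, 4 of 10 were tested, 2 were higher in BMDM (Spn at 5.22 and Itgal at 3.44 on the log2 scale) and 1, Cx3cr1, was higher in BSM (-3.48). Spn, Itgal, Mbp and Cnp had reached the minimum in BMDM alone and Slc1a3 in BSM alone. Beside all these calls, 45.3% of all genes tested were called higher in BMDM and 9.22% higher in BSM.

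The genes most like each factor over the 6 libraries were found as those with the smallest root mean square difference in log2(FPKM + 1), each gene centred on its own mean. For Cebpb they were Oaz1 (0.069) and Brp44 (0.087), and for Klf4 they were Csgalnact2 (0.136) and Aldh9a1 (0.163). Cyth4 (0.098) and Yars (0.107) came nearest to Cebpa, and Sphk2 (0.070) and 2500003M10Rik (0.078) to Spi1. For Runx1 they were ENSMUSG00000084877 (0.067) and Snapc3 (0.069), for Klf6 Zbed3 (0.090) and Kif1b (0.106), and for Klf2 Tsr1 (0.138) and Hist2h3c1 (0.157). With 6 libraries and 6364 genes such likeness is a description of these values only.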

How the data were processed

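Total RNA of sorted BMDM and BSM was amplified with the Ovation RNA-Seq method and sequenced as paired-end reads. Per the labels, the submitters' processing notes name CASAVA 1.7.0, TopHat 1.3.1, Bowtie 0.12.7, Cufflinks 1.0.3 and the mouse build mm9. The authors deposited FPKM from Cufflinks, already scaled for transcript length and mapped fragments, and a signal for each gene from ALEXA-Seq on a linear scale whose unit is not given in the sources used here. Neither table holds whole reads. Reads were counted for each library in the study but are not used here, so no counting interval is given and the spread between libraries stands for the error. The starts in the FPKM file are counted from 0 and are given here from 1.

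FPKM were compared with limma 3.58.1 (R 4.3.3) as log2(FPKM + 1) with a mean-variance trend, for the 6364 genes at 3 FPKM or more in at least 1 of 6 libraries, with Benjamini-Hochberg adjustment over all of them. A fold change on this scale understates the change of low genes. As many ALEXA-Seq genes, those with the highest values (37.4 or more in at least 1 library), were tested likewise. Shares within families were compared by exact two-sided permutation tests. Alternatives were a pseudocount of 0.1, a minimum of 1 FPKM or none, quantile normalization, upper quartile scaling, equal sums, the replicate number as a block, library quality weights, no trend, and each library left out.

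The factors and gene lists were chosen with earlier results of these data known. Genes named from other lists are up to 4 called in each direction, by size of fold change, and the markers Csf1r, Csf3r, Itgam, Cx3cr1, Ly6c2, Ccr2, Fos, Egr1 and Jun. Ngp, S100a9, Chi3l3, Ltf, Camp, Retnlg, Zfp36, Cebpg, Nr4a2, Nr4a3, Ly6g, Ube2v1, Hba-a1, Hbb-b1, Slc1a3, Mbp and Cnp were named after their values were seen. Promoters came from RefSeq (GRCm38.p6) and were matched by symbol. Python 3.11.15 was used with pandas 2.3.3, numpy 2.4.6 and matplotlib 3.10.9.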

Additional observations from a re-analysis of the deposited data

How the results depend on the processing

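In the FPKM table the number of factors called higher in BMDM was 2, beside 45.3% of all genes tested. The number was 3 with a minimum of 1 FPKM (37.2% of all genes) and with no minimum (14.9%), adding Nr4a1. It was 3 with library quality weights (adding Spi1) and 1 with equal sums (15.2%), where Klf4 was lost. The number called higher in BSM was 0 (9.22% of all genes). It became 4 with quantile normalization (19.3%), 3 with upper quartile scaling (16.5%), 4 with equal sums (24.9%) and 1 with library quality weights (Cebpa). Leaving out each library gave 2 in BMDM throughout and 0 to 1 in BSM, the 1 being Cebpa without BSM replicate 1. In the ALEXA-Seq table the 2 factors higher in BMDM (37.1% of all genes) became 1 with upper quartile scaling, with Klf4 kept. They became 0 with equal sums (13.2%) and 3 with library quality weights (adding Spi1). With no minimum (10.5%) they were Klf4 and Nr4a1, Cebpb being lost (adjusted p = 0.0568). The leave-outs gave 1 to 2, with Cebpb lost without BMDM replicate 1, 2 or 3. The 1 factor higher in BSM, Cebpa (10.9% of all genes), became 0 with no minimum and with no mean-variance trend. It became 4 with quantile normalization (21.2%), with upper quartile scaling and with equal sums (30.2%). The leave-outs gave 0 to 1, with 0 without BMDM replicate 1 or 3 or BSM replicate 2 or 3. The sign changed for Spi1 in FPKM with quantile normalization (-0.25), upper quartile scaling (-0.13) and equal sums (-0.48), and in ALEXA-Seq with upper quartile scaling (-0.10) and equal sums (-0.64). It changed for Klf2 with library quality weights (0.15 in FPKM, 0.17 in ALEXA-Seq) and, over the leave-outs in FPKM, which ranged from -0.43 to 0.02, without BMDM replicate 1. Library quality weights also put Spi1 past the threshold (0.60, adjusted p = 0.0115, and 0.76, adjusted p = 0.000504, in ALEXA-Seq). Of the other genes named, Zeb2 turned to -0.13 with equal sums and Itgam to -0.13 without BSM replicate 2, its leave-outs ranging up to 3.60 without BSM replicate 1. The cause of these changes was not tested, apart from the scaling itself, which moved the median of all genes. Where a count in this section stands without a share of all genes, that share is not given.

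Among the 35 other regulators, 16 were higher in BMDM (45.3% of all genes). They became 6 with quantile normalization (21.7%), 8 with upper quartile scaling (21.7%) and 8 with equal sums (15.2%). The 5 higher in BSM (9.22%) became 8 with a minimum of 1 FPKM, with quantile normalization (19.3%), with upper quartile scaling (16.5%) and with library quality weights. With equal sums they became 10 (24.9%). Leaving out each library gave 11 to 15 in BMDM and 5 to 6 in BSM. The differences in family share (BMDM minus BSM, in percentage points) kept their sign in all alternatives, and over the leave-outs ranged from -21.8 to -6.80 for Cebpa, 24.2 to 31.9 for Cebpb, -1.67 to -0.588 for Klf2, 7.78 to 10.1 for Klf4, -19.9 to -14.8 for Klf6 and -35.3 to -30.6 for Runx1. Shares of the NR4A family were not compared, since its sum was 0 in BSM replicate 1. Same-numbered libraries did not deviate together, with correlations of -0.02, -0.01 and 0.13, so the numbers were not taken as pairs. With the replicate number as a block, 2 factors were higher in BMDM and 0 in BSM, no factor's call changed in either table, and the other regulators gave 15 and 5. With 3 libraries for each cell type, a factor that was not called is not shown to be equal.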
